A study of Homo sapiens with 10 samples.

Results

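Mixture 6 and mixture 5, both pools of human blood cancer cell lines rich in K562 RNA, were compared gene by gene. A gene entered when its level was 5 or more in either mixture, which held for 10494 of the 20591 genes in the deposited table. Levels are normalised CPM, reads per 1000000 after the authors' own scaling between libraries. The log2 ratio is log2((mixture 6 + 1)/(mixture 5 + 1)), so that it understates the change of low genes. A gene was called higher or lower at a log2 ratio of 1 or more in size, and for each called gene the pure line with the highest level was read from the same table.

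The series held 10 libraries: the pure lines HL60, K562, SUDHL4 and THP1 were each sequenced in 1 library, and so was each of 6 pools of these 4 lines. All cells were wild-type, untreated and taken at day 0 from RPMI medium with 10% serum, per the labels. HL60 and THP1 were both derived from acute myeloid leukaemias, HL60 with promyelocytic and THP1 with monocytic features. K562 came from a chronic myeloid leukaemia and has erythroid features, and SUDHL4 came from a germinal-centre type of B cell lymphoma. The labels give neither the ratios of the mixtures nor which of the kits named, one for total RNA and one for mRNA, was used for which library. Mixture 5 held 24985570 reads and mixture 6 held 31607384, and the other 8 libraries held 26902190 to 36607612. Each group is 1 library, so no difference has a replicate check and no p-value is given. Intervals are exact 95% intervals for counting error of the reads alone.

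Promyelocytes are granulocyte precursors that fill their first granules with myeloperoxidase, serine proteases and antimicrobial proteins, and HL60 keeps part of this programme. THP1 shares several granule genes with HL60 but adds monocyte genes, K562 makes embryonic and fetal globins, and SUDHL4 carries B cell receptor and class II genes. When lines are pooled, the RNA of a minor line is seen in transcripts that the major lines lack.

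Most genes lay close to the same level in both mixtures. The median log2 ratio over the 10494 genes was 0.02, and 95.33% of them lay within 0.5 of 0 (10004 genes). Mixture 6 was higher by the threshold for 17 genes, 0.162% of those compared, and lower for 11 genes, 0.105%. At 1.5-fold it was higher for 166 genes (1.58%) and lower for 103 (0.982%). The balance turned with the entry level, with 4 genes higher and 6 lower at an entry level of 20 and 55 and 25 at an entry level of 1. Of the 17 higher genes, 16 were highest in HL60, the line that was highest for 25.5% of all genes compared, and 1 was highest in K562. But 13 of the 17 were below 5 in mixture 5, so they entered through mixture 6 alone and had to be higher in it. For them the 25.5% is not a like background. The other 4 were at 5 or more in both mixtures. The highest line alone does not give the source of a difference. Of the 11 lower genes, 7 were highest in SUDHL4, 2 in THP1, 1 in K562 and 1 in HL60. SUDHL4 was 2-fold above the next line for 4 of those 7, and none of the 11 met the rule for a line-enriched gene (a pure level of at least 5 and a margin of at least 2 log2 units over each other line). The higher genes included 14 protein-coding genes and the lower genes none. The counting interval of the fold excluded 1 for all 28 called genes. This follows from the selection, since the same reads had to differ by 2-fold or more at a level of 5, and is no separate support.

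**Figure D1:**
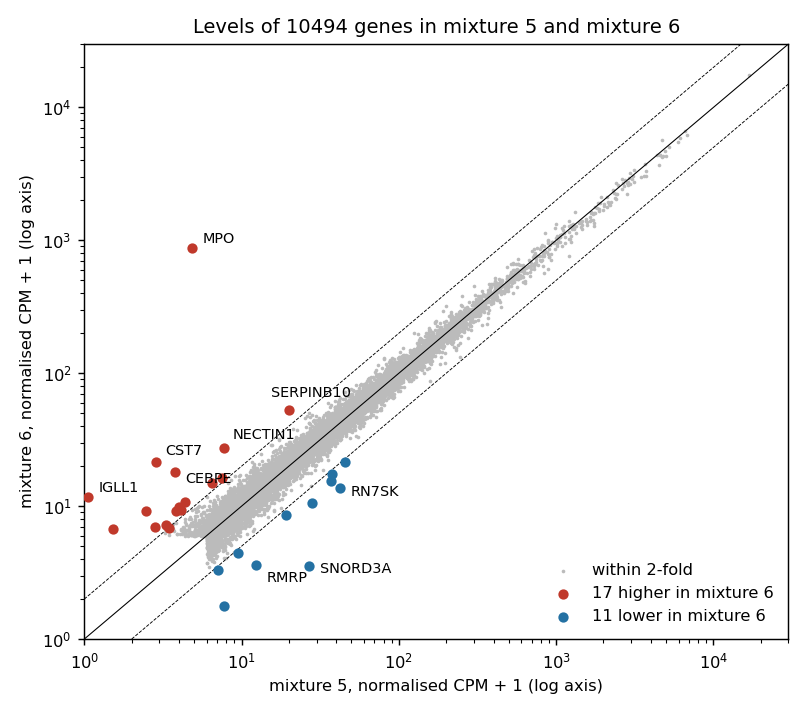
Level of each gene compared (points) in mixture 5 and mixture 6, as normalised CPM + 1 on log axes, with the line of equality and dashed lines at 2-fold. MPO stands alone at 3.82 in mixture 5 and 868.6 in mixture 6, while the lower genes lie between 6.09 and 44.2 in mixture 5.

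The largest difference was in MPO (ENSG00000005381, chr17:58269856-58280935 in GRCh38, GENCODE release 29), which encodes myeloperoxidase, the peroxidase of the azurophil granule. Its level was 3.82 in mixture 5 and 868.6 in mixture 6, from 97 and 28319 reads, a log2 ratio of 7.50 and a fold of 229 (187.5 to 282). Pure HL60 held 15646, pure THP1 9.88, K562 0.212 and SUDHL4 0.129. Mixture 6 thus carried 5.55% of the pure HL60 level and mixture 5 carried 0.0244%. The other 4 mixtures lay above both, at 1206 in mixture 4, 3083 in mixture 3, 3837 in mixture 1 and 6511 in mixture 2. Mixture 5 was the only one of the 6 mixtures whose MPO level was below that of pure THP1. In bulk RNA, fewer cells of a line and less RNA per cell cannot be told apart.

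IGLL1, CST7, CEBPE and SERPINB10 had the same order of mixtures as MPO, highest in mixture 2, then 1, 3, 4, 6 and 5. IGLL1, the surrogate light chain gene of early B cells that is also transcribed in HL60 here, had 1 read in mixture 5 (level 0.0587) and 347 reads in mixture 6 (10.7), a fold of 272 with a counting interval of 48.5 to 10772. CST7, the cysteine protease inhibitor cystatin F, had 1.86 in mixture 5 and 20.4 in mixture 6 (log2 ratio 2.90, fold 11.1, 8.23 to 15.2). CEBPE, the transcription factor of late granulocyte differentiation, had 2.76 and 17.04 (2.26, fold 6.21, 4.84 to 8.09). SERPINB10, a serpin of bone marrow cells, had 18.9 and 52.3 (1.42, fold 2.76, 2.50 to 3.07). In pure HL60 these 4 genes stood at 140.1, 263.6, 216.4 and 508.0, and no other pure line exceeded 50.9, the level of SERPINB10 in THP1.

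The remaining higher genes encode signalling, adhesion and other proteins. TNF, an inflammatory cytokine, had 0.528 in mixture 5 and 5.72 in mixture 6 (log2 ratio 2.14) against 64.3 in pure HL60. AEBP1, a carboxypeptidase-like protein, had 1.47 and 8.17 (1.89). NECTIN1, a cell adhesion molecule, had 6.71 and 26.4 (1.83) and was one of 4 higher genes at 5 or more in both mixtures. ITGA6, the integrin alpha 6 subunit, had 1.82 and 5.97 (1.30). IGF1R, the receptor of insulin-like growth factor 1, had 3.15 and 8.39 (1.18). EPB41L3, a membrane skeleton protein, had 6.48 and 15.3 (1.12), and ARNTL2, a circadian transcription factor, had 2.33 and 6.21 (1.12). The zinc finger gene ZNF718 was at the edge with 2.45 and 5.90 (1.00). LSM12P1, a processed pseudogene whose reads may come from its parent gene, had 3.39 and 9.80 (1.30), and 2 genes without a name in the tables, ENSG00000196533 and ENSG00000272016, had log2 ratios of 1.30 and 1.21. Just outside the threshold were MTAP (0.99), a methionine salvage enzyme, TNFSF13B (0.97), the B cell survival factor BAFF, and MSRB3 (0.97).

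**Figure D2:**
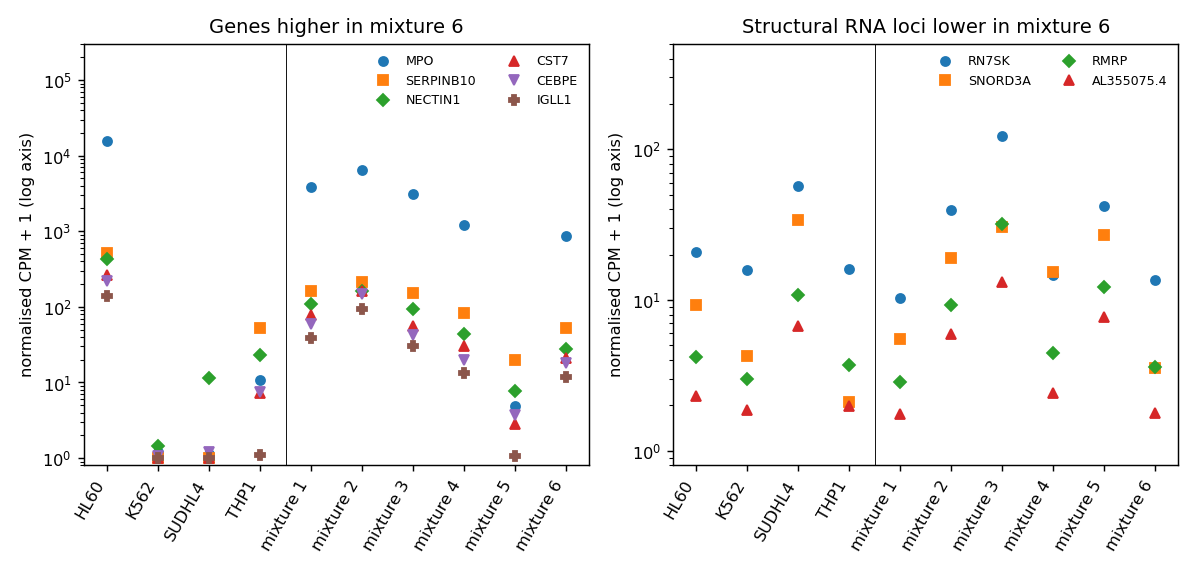
Level of called genes in each of the 10 libraries, 1 point per library, as normalised CPM + 1 on a log axis, pure lines left of the vertical line and mixtures right of it. The 6 genes in the left panel were highest in pure HL60, and among the mixtures were lowest in mixture 5 and second lowest in mixture 6; the 4 loci in the right panel were higher in mixture 5 than in mixture 6.

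Promoters were looked up for the higher genes as a set, and 8 of the 17 had an entry in the RefSeq table (GRCh38.p14). The 250 bases before the start are shown for IGLL1 and TNF, as examples with matches. The IGLL1 window is chr22:23580291-23580540 on the minus strand and the TNF window is chr6:31575315-31575564 on the plus strand, each written 5′ to 3′. Capitals mark matches to any of 4 motifs, searched on both strands with none overlapping in these windows. The motif of PU.1 was written GAGGAA, and that of RUNX factors TGTGGT. The motif of C/EBP factors was TTGCNNAA, and the TATA box was TATAAA.
IGLL1: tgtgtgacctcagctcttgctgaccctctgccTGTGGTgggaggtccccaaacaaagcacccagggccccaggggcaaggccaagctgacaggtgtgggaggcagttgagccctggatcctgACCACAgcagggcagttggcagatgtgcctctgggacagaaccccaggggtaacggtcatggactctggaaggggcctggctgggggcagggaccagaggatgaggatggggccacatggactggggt
TNF: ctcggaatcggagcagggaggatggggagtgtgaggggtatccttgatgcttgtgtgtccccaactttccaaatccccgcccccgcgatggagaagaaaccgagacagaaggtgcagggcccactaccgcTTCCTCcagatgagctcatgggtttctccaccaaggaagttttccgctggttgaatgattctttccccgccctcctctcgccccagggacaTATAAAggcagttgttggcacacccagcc
Among the 8 promoters, GAGGAA was present in 2 (CEBPE and TNF), TGTGGT in 1 (IGLL1), TATAAA in 3 (ITGA6, TNF and ZNF718) and TTGCNNAA in none. Over all 35116 promoters of the table, cut to the same length, these letters were found in 23.6%, 10.98%, 10.7% and 9.05%. A match describes the letters in this window and no more.

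The difference was then described by how far pure HL60 exceeded the highest of the other 3 pure lines. Because a gene low in mixture 5 could enter the comparison only by being high in mixture 6, genes were taken here by a pure HL60 level of at least 5, whatever their level in the mixtures, and counted at 2-fold or more in unadjusted levels. All 22 genes with an excess of 4 or more log2 units were at 2-fold or more higher in mixture 6. Between 3 and 4 it was 19 of 21, between 2 and 3 it was 33 of 71, and between 1 and 2 it was 16 of 279. Between 0 and 1 it was 11 of 2511, and of the 6124 genes whose HL60 level was not above the other lines 6 were so. Over the 11717 genes at 5 or more in any pure line, 1.25% were at 2-fold or more higher and 0.376% lower. The median log2 ratio was 1.86, 0.90, 0.63, 0.18, 0.05 and 0.03 in these 6 classes from the first to the last. In the entry-level comparison 8 genes had an excess of 4 or more and 8 were called, but 7 of them were below 5 in mixture 5 and entered through mixture 6 alone.

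**Figure D3:**
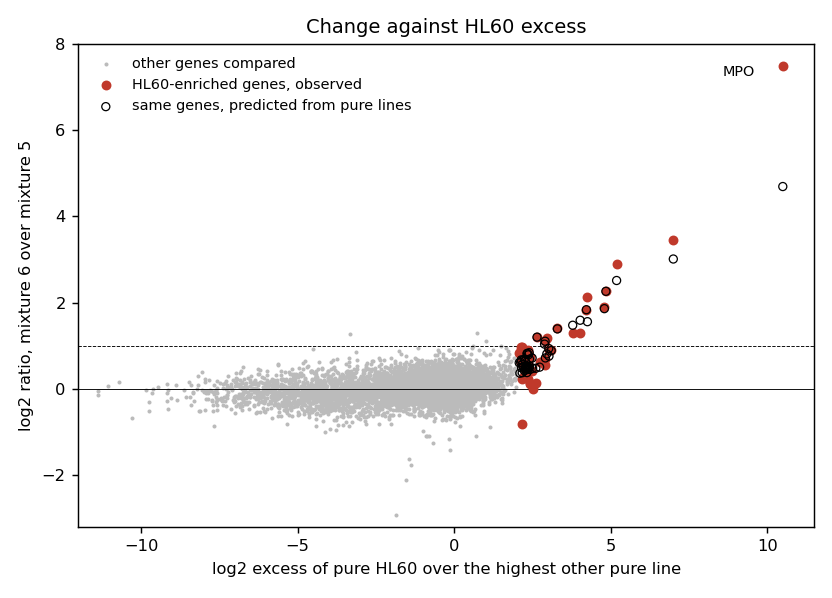
log2 ratio of mixture 6 over mixture 5 against the log2 excess of pure HL60 over the highest other pure line, 1 point per gene; grey points are other genes, red points the 50 compared HL60-enriched genes and open circles the ratio predicted for the same genes from the pure profiles. The 8 genes with an excess of 4 or more lie above the dashed threshold line, 7 of them having entered through mixture 6 alone, and most genes with an excess of 2 to 3 lie between 0 and 1.

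HL60-enriched genes, by the rule above, numbered 114, of which 50 entered the comparison and 64 were below 5 in both mixtures. Over all 114, the median log2 ratio was 0.80, 112 were above 0 and 74 were at 2-fold or more in unadjusted levels. Of the 50 that entered, 20 were below 5 in mixture 5 and so had to be higher in mixture 6. The 30 at 5 or more in mixture 5 had a median of 0.61, with 28 above 0 and 4 called higher, while all 50 had a median of 0.72 and 13 called. The 64 genes below the entry level had pure HL60 levels of 5.08 to 63.3, and all 64 were higher in mixture 6, with a fold interval above 1 for 59; 57 of them were at 2-fold or more in their unadjusted levels and 19 had no read in mixture 5. These included the eosinophil granule genes CLC (0 reads in mixture 5 and 138 in mixture 6), EPX (0 and 73) and PRG2 (0 and 39), and BPI, a bactericidal protein of neutrophil granules (3 and 68). CLC was at least 28.9-fold higher in mixture 6 by its counting interval, and 36.05-fold higher if mixture 5 is taken to hold 3 reads. The abundant HL60-enriched genes MYC, TFRC and CALR, which the other lines also express, had ratios below the median of the 50. MYC, the growth transcription factor, had 189.1 and 293.2 (log2 ratio 0.63), TFRC, the transferrin receptor, had 197.4 and 318.8 (0.69), and CALR, a chaperone of the endoplasmic reticulum, had 851 and 1131 (0.41). CXCL8, a neutrophil chemoattractant at a low level, had 4.21 and 8.73 (0.90). The 2 below 0 were MATK, a tyrosine kinase with 35.2 and 34.9, and a gene without a name with 31.9 and 17.6.

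In all, 10 HL60-enriched genes had at most 3 reads in the other 3 pure lines together: IGLL1, CLC, S1PR4, EPX, ZNF667, ZNF667-AS1, PRG2, SLC28A3, PTX4 and COL17A1. ZNF667 and ZNF667-AS1 are a pair of overlapping genes on opposite strands, whose reads cannot be told apart if strand was not used in counting. Pooled, the 10 genes had 9969 reads in pure HL60, 808 in mixture 6 and 3 in mixture 5. Their level in mixture 6 was 7.42% of the pure level (6.91 to 7.95%), and in mixture 5 it was 0.0351% (0.00725 to 0.103%). Gene by gene, the percentage in mixture 6 ran from 3.70% for SLC28A3, a nucleoside transporter, to 14.7% for PRG2, the eosinophil major basic protein. Mixtures 4, 3, 1 and 2 held 8.76%, 20.6%, 26.5% and 59.4%. Mixture 6 was therefore the lowest of the mixtures other than mixture 5.

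The pure profiles were also fitted to each mixture by non-negative least squares over 1514 line-enriched genes. In mixture 5 the estimated shares of RNA were 52.65% K562, 35.8% THP1, 11.3% SUDHL4 and 0.261% HL60. In mixture 6 they were 52.3% K562, 28.8% THP1, 11.4% SUDHL4 and 7.46% HL60. The HL60 share was 7.20 points higher in mixture 6 and the THP1 share was 6.95 points lower, while K562 and SUDHL4 differed by -0.342 and 0.0918 points. The HL60 and THP1 differences were opposite in sign, and K562 was the largest share of both mixtures. Their sizes depended on the genes fitted: with all genes at 5 or more in a pure line, HL60 had 4.50% and 9.90%, a difference of 5.40 points, and THP1 had 37.5% and 29.5%, a larger difference in size. The HL60 share of 0.261% in mixture 5 was above the 0.0351% given by the 10 genes nearly absent from the other lines and the 0.0244% given by MPO.

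In mixture 5, several of the higher genes lay near the level that the other 3 lines give without HL60. The fitted shares of K562, SUDHL4 and THP1 gave 3.55 for MPO, against 3.82 observed, 17.7 for SERPINB10 against 18.9, and 6.60 for EPB41L3 against 6.48. For CST7 they gave 2.18 against 1.86, for CEBPE 2.34 against 2.76 and for TNF 1.08 against 0.528. In mixture 6 the fitted HL60 share alone gave 19.2 of the 20.4 of CST7, 15.8 of the 17.04 of CEBPE and 37.0 of the 52.3 of SERPINB10. MPO was the exception among these, with 1139 from the fitted HL60 share and 868.6 observed. The predicted log2 ratio of MPO was 4.69 and the observed one 7.50, the largest positive departure of any gene compared. Departures of at least 1 were positive for 4 genes (0.0381%) and negative for 13 (0.124%), all 11 lower genes among them. The lowest predicted ratio of any gene was -0.30, so a gene called lower had to lie well below its prediction. The fitted HL60 share gave 39.6 for MPO in mixture 5. Of the 17 higher genes, 12 were also predicted at 1 or more. Only 6 of these 12 were outside the estimate, and the rest were among the genes that the shares were fitted to. The higher genes predicted below 1 were IGF1R (predicted 0.811), ARNTL2 (0.239), ZNF718 (0.2003), LSM12P1 (0.121) and SSX2 (1.15e-04). ARNTL2, ZNF718 and LSM12P1 were highest in HL60, but the fitted HL60 share gave little of their level in mixture 6. It gave 1.81 of 6.21, 1.107 of 5.90 and 0.989 of 9.80. In mixture 5 they lay below the level from the other lines, at 2.33 against 4.34, 2.45 against 4.28 and 3.39 against 6.32. The source of these differences was not tested. Over all 10494 genes, observed and predicted ratios had a Pearson r of 0.522 and a Spearman rho of 0.361. Over the 9520 genes not used in the estimate these were 0.468 and 0.324, both descriptions over genes that share the same libraries.

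**Figure D4:**
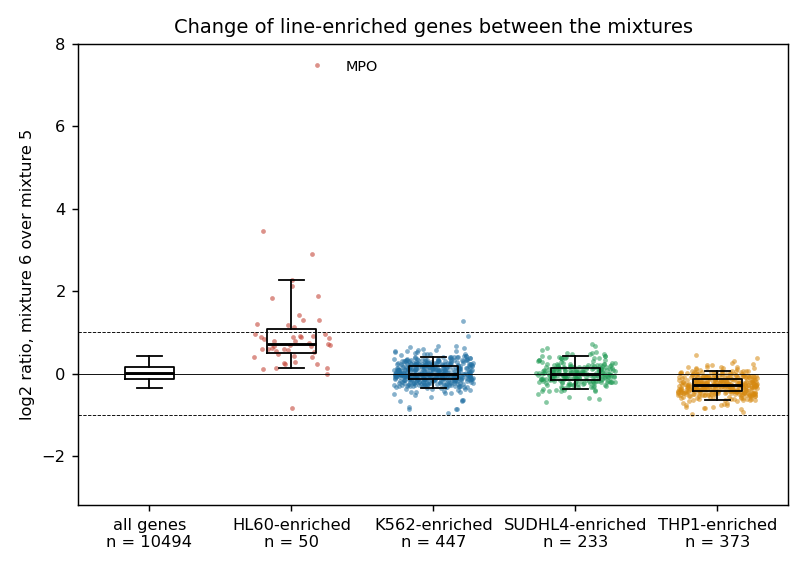
log2 ratio of mixture 6 over mixture 5 for all genes compared and for genes enriched in each pure line, 1 point per enriched gene, with boxes for quartiles, thick lines for medians and whiskers at the 5th and 95th percentiles. HL60-enriched genes have a median of 0.72 and THP1-enriched genes of -0.28, while the K562 and SUDHL4 medians lie near 0 (-0.003 and -0.004, turning to 0.006 and 0.02 with column-total scaling).

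THP1-enriched genes lay the other way, by a smaller amount. Of the 373 compared, 333 had a log2 ratio below 0, and the median was -0.28, a fold of 0.82, with 29 lower at 1.5-fold and none past the threshold. In unadjusted levels 4 of them were at 2-fold or more lower (UTS2, HEG1, WLS and OAS3), as were 14 of all 589 THP1-enriched genes, whatever their level in the mixtures. Their median level was 37.4% of pure THP1 in mixture 5 and 30.5% in mixture 6. Of the monocyte and macrophage list, 20 of 30 genes were compared, none was called and 17 were below 0, with a median of -0.30. TGFBI, an extracellular matrix protein of monocytes, had 194.2 in mixture 5 and 140.9 in mixture 6 (fold 0.725, 0.697 to 0.755). S100A9, an alarmin of myeloid cells, had 368.0 and 261.6, and VCAN, the proteoglycan versican, had 59.3 and 41.3. CSF1R, the receptor of macrophage colony-stimulating factor, had 68.5 and 52.5. ITGAX (7.34 and 7.35), CD33 (31.6 and 31.8) and TLR4 (6.44 and 7.56) were the 3 members at or above 0. Just outside the threshold was UTS2, the peptide urotensin 2, a THP1-enriched gene with 7.96 and 3.51 (-0.99).

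Genes shared by HL60 and THP1 split by which of these lines held more. Of 273 such genes, the 28 with HL60 at least 1 log2 unit above THP1 had a median log2 ratio of 0.70, the 152 within 1 unit had -0.005, and the 93 with THP1 at least 1 unit above had -0.21. The promyelocyte granule list shows this split: 14 of 24 measured genes were compared, 4 were called higher (MPO, CST7, CEBPE and SERPINB10), none was called lower, and the median was -0.11, which became 0.11 when genes at 1 or more entered. MPO, CST7 and CEBPE were below 5 in mixture 5, so they entered through mixture 6 alone and had to be higher in it. SERPINB10 was at 18.9 in mixture 5. Others of the 28 genes, such as GCA and S100P, were also below 5 in mixture 5, so the median of 0.70 was partly fixed by the entry rule. The azurophil granule genes ELANE, AZU1, PRTN3 and CTSG, which THP1 holds in excess of HL60 here, were lower in mixture 6 without reaching the threshold. ELANE, neutrophil elastase, had 364.4 in mixture 5 and 233.8 in mixture 6 (log2 ratio -0.64), with 801.0 in pure THP1 and 119.2 in pure HL60. AZU1, azurocidin, had 838.8 and 571.2 (-0.55), PRTN3, proteinase 3, had 630.4 and 475.9 (-0.41), and CTSG, cathepsin G, had 629.2 and 496.1 (-0.34). SRGN, the granule proteoglycan serglycin at 2788 in HL60 and 2169 in THP1, had 1086 and 1121 (0.05).

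K562-enriched genes had the same centre in both mixtures. The median log2 ratio of the 447 compared was -0.003, or 0.006 with libraries scaled to their column totals, and their median level was 51.1% of pure K562 in mixture 5 and 51.6% in mixture 6. Of the 447, 7 were at 1.5-fold or more higher and 9 lower. Among 26 compared erythroid genes the median was -0.07, none was called and 17 were below 0. RHAG, a Rhesus-associated glycoprotein, had 336.9 in mixture 5 and 314.0 in mixture 6, and GATA1, the erythroid transcription factor, had 149.6 and 129.4.

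The globins divided. HBE1, embryonic epsilon globin, had 1655 in mixture 5 and 1603 in mixture 6, and HBG2, one of the fetal gamma globins, had 1245 and 1298. HBG1, its near-identical copy, had 1212 and 759.0 (log2 ratio -0.67), HBZ, embryonic zeta globin, had 221.7 and 157.4 (-0.49), HBA2 had 127.4 and 92.4 (-0.46), and HBA1 had 242.9 and 132.7 (-0.87). As percentages of pure K562, HBA1, HBA2 and HBZ stood at 118.8%, 137.0% and 117.7% in mixture 5, so the pool held more of them than the pure line, and at 64.9%, 99.4% and 83.6% in mixture 6. In the mixtures with fewer K562 transcripts, HBA1 held 36.2% (mixture 1), 38.5% (mixture 2) and 46.2% (mixture 3). Of the K562-enriched genes, 13 exceeded the pure level in mixture 5 and 3 in mixture 6. The reads of HBA1 and HBA2, and of HBG1 and HBG2, cannot be assigned with certainty because the copies are nearly identical.

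Cancer-testis genes are normally silent outside the germ line. Of the 13 compared genes of this list, 8 were above 0 and 5 below, with a median of 0.09. SSX2 was the 1 gene called higher that was highest in K562, with 2.84 in mixture 5 and 8.23 in mixture 6 (log2 ratio 1.27, fold 2.92, 2.24 to 3.84), or 31.1% and 90.2% of pure K562. GAGE4, a gene of the GAGE family that is not in the list, lay just outside the lower threshold with 26.6 and 13.1 (-0.96), or 211.1% and 104.5% of pure K562. SSX2 and GAGE4 belong to multicopy families, so their reads are uncertain. The other 12 genes of the list were not called, such as PRAME with 772.2 and 757.8, SSX1 with 65.8 and 65.5 and MAGEA3 with 58.7 and 64.7. CTTN, the actin regulator cortactin and a single-copy gene, was also high, with 14.3 and 27.96 (0.92, 42.0% and 81.9% of pure K562).

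**Figure D5:**
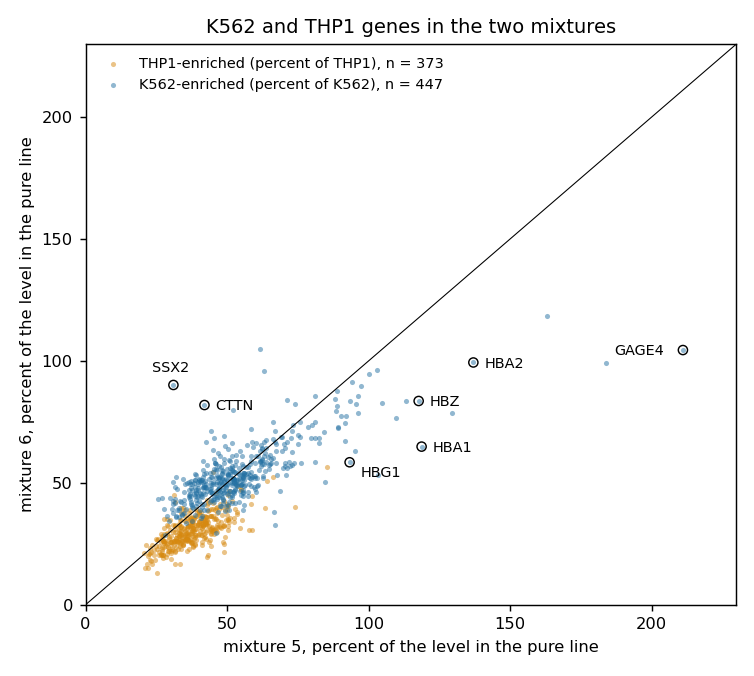
Level in mixture 6 against level in mixture 5, each as a percentage of the level in the pure line, for K562-enriched and THP1-enriched genes (1 point per gene) with the line of equality. K562 genes centre on the line near 51%, THP1 genes lie below it, and GAGE4, HBA1, HBA2, HBZ and HBG1 lie far below it while SSX2 and CTTN lie above.

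SUDHL4-enriched genes had a median log2 ratio of -0.004 over 233 genes, or 0.02 with libraries scaled to their column totals, and none was called. Of all 417 such genes, whatever their level in the mixtures, 16 (3.84%) were at 2-fold or more higher in unadjusted levels and 7 (1.68%) lower. Over genes at 5 or more in any pure line these were 1.25% and 0.376%. Their median level was 14.2% of pure SUDHL4 in mixture 5 and 14.1% in mixture 6. Of 26 compared B cell genes, 14 were below 0 and the median was -0.01. MS4A1, the B cell antigen CD20, had 257.4 and 232.9, JCHAIN, the immunoglobulin joining chain, had 167.5 and 187.9, and PAX5, the B cell identity factor, had 21.7 and 28.7 (0.38). IGLL5, an immunoglobulin lambda-like gene, was the highest of the list with 5.30 and 8.36 (0.57). All 11 compared class II presentation genes were below 0, with a median of -0.19 and a range of -0.38 for HLA-DRB1 to -0.04 for HLA-DRB5, and none was called. The other 2 measured members were below the entry level and lay above 0, HLA-DOB with 2.05 and 3.85 (0.67) and CIITA, the class II transactivator, with 1.58 and 2.22 (0.32). With an entry level of 1 the median was -0.080. HLA-DRA had 126.3 and 102.7, and 851.7 in pure SUDHL4.

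The genes lower in mixture 6 were structural RNAs or a locus overlapping one, processed pseudogenes and loci without a name. SNORD3A, the U3 small nucleolar RNA that guides ribosomal RNA cleavage, had 25.9 in mixture 5 and 2.56 in mixture 6 (log2 ratio -2.92, fold 0.0983, 0.0772 to 0.124). RMRP, the RNA of an endoribonuclease, had 11.3 and 2.59 (-1.77), and RN7SK, the RNA that restrains the elongation factor P-TEFb, had 41.0 and 12.6 (-1.63). AL355075.4 had 6.71 and 0.782 (-2.11); it overlaps the RNase P RNA gene RPPH1 on the same strand (chr14:20343048-20343685 against 20343075 to 20343407), so its reads may be those of RPPH1. The 3′ ends of 2 of these RNAs are shown because these RNAs are known to lack a poly(A) tail, and the last 10 bases are in capitals (GENCODE release 29).
RMRP: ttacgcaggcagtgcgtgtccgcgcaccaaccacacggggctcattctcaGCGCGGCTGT
SNORD3A: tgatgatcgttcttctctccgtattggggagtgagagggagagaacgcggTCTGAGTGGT
RMRP is 268 bases long and lies at chr9:35657751-35658018 on the minus strand, and the SNORD3A transcript is 217 bases long within chr17:19188016-19188714 on the plus strand. Their longest runs of A are 3 and 4 bases.

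The pure profiles did not predict these differences. The ratio predicted from them lay between 0.02 and 0.12 for these 4 loci, and no lower gene was predicted below -0.05. Over all genes compared the lowest predicted ratio was -0.30. With these fitted shares no gene could be predicted lower by the threshold, so a miss there was fixed in advance. Over the 10 libraries, RN7SK was at 121.7 in mixture 3, 55.98 in SUDHL4, 41.0 in mixture 5 and 38.6 in mixture 2, and at 9.29 to 19.9 in the other 6 libraries. SNORD3A was at 32.7 in SUDHL4, 29.7 in mixture 3, 25.9 in mixture 5, 18.0 in mixture 2 and 14.3 in mixture 4, and at 1.12 to 8.26 in the others. RMRP was at 31.1 in mixture 3, 11.3 in mixture 5 and 1.87 in mixture 1. In the list of 37 RNAs known to lack a poly(A) tail, 8 genes were compared, 3 were called lower (SNORD3A, RMRP and RN7SK) and the other 5 were histone genes between -0.16 and 0.15. The labels do not say which kit was used for which library, and the part of the kit in these differences was not tested.

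A further 4 lower genes were processed pseudogenes. EEF1A1P13, a copy of elongation factor 1 alpha, had 27.2 and 9.52 (log2 ratio -1.42), FAUP1, a copy of the ribosomal protein fusion gene FAU, had 18.1 and 7.59 (-1.16), RPS10P13, a copy of ribosomal protein S10, had 36.8 and 16.6 (-1.10), and DNAJB6P1 had 8.55 and 3.48 (-1.09). The pseudogene SKP1P1 was just outside the threshold (-0.98). EEF1A1P13 was at 7.58 to 13.7 in the other 8 libraries, so mixture 5 stood apart for it. Reads of such copies may come from the parent gene. The 218 processed pseudogenes compared had a median of -0.12, with 75 above 0, and the 9913 protein-coding genes a median of 0.02. The unnamed ENSG00000258486 and ENSG00000265150 had 35.8 and 14.5, and 44.2 and 20.3, and were highest in mixture 3, at 85.9 and 100.5.

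The other lists had no called gene apart from 1 each among inflammatory cytokines (TNF), cancer-testis genes (SSX2) and progenitor genes (ITGA6). Of 36 ribosomal protein genes, 31 were below 0 with a median of -0.15, from -0.43 for RPL30 (1734 and 1285) to 0.14 for RPL6 (1916 and 2105). The 28 housekeeping genes had a median of 0.04, from -0.26 for EMC7 to 0.41 for POLR2A, and 20 mitosis genes had a median of 0.12. Of the T and NK cell list, 4 genes reached the entry level (LCK, CD3D, CD4 and NKG7), with a list sum of 157.2 in mixture 5 and 138.7 in mixture 6. Of the stromal and epithelial list 6 genes did, with a sum of 1014 and 945.1. Ratios were also related to base composition. Over 10381 genes with a transcript, GC content and log2 ratio had a Spearman rho of -0.319, with a median of 0.11 in the 2596 genes lowest in GC and -0.07 in the 2595 highest. Transcript length had a rho of 0.109. The part of base composition in the differences was not tested.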

How the data were processed

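RNA of 10 libraries was measured by bulk RNA sequencing; the labels give total RNA as the molecule of each, and name a total RNA and an mRNA kit without saying which library had which. The aligner HISAT2, the counter featureCounts, Cell Ranger ARC (version 2.0.0) and the hg19 build are named in the submitters' processing notes, with no settings. Signal was deposited by the authors in 1 table for 20591 genes (16800 with a symbol, 3123 named here from reference tables, 668 unnamed), on the scale of counts per 1000000 reads but with columns that do not sum to 1000000. Every value above 0 was a whole number of reads plus 0.5, times a constant for its column, within 0.01 for 100% of values; reads behind the intervals were recovered this way. The signal could not be tested as counts, and with 1 library a group no test was run. Positions, lengths and GC contents come from GENCODE release 29 (GRCh38) and sequences from RefSeq (GRCh38.p14) and GENCODE.

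Analysis used Python 3.11.15, numpy 2.4.6, pandas 2.3.3, scipy 1.17.1 and matplotlib 3.10.9, and the scripts were tested on simulated data. A pseudocount of 1, an entry level of 5 and a log2 threshold of 1 were used. The members and the 21 gene lists (413 genes measured) were chosen with earlier results of these data known. Named genes are the called genes, the genes nearest each threshold, the 3 largest each way per line, the most abundant called, the largest departures from the prediction, the genes nearly absent from the other lines, and list members; MATK, the HL60-enriched gene without a name and the abundant HL60-enriched genes were chosen after their values were seen, as were HEG1, WLS and the counts over genes taken by pure level alone. The shares left out all listed genes, with genes scaled to their highest pure level before the fit. Alternatives changed the threshold, pseudocount, entry level, scaling, line assignment, enrichment margin and genes of the fit. A few genes are not reported here.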

Additional observations from a re-analysis of the deposited data

How the results depend on the processing

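Every called gene had its main direction under every alternative pseudocount, entry level and scaling run (224 of 224 values over 28 genes, 207 of them past the threshold). These settings could not have turned a direction. An entry level leaves the ratio of a gene unchanged, so those values repeat the main ones, and a pseudocount cannot change its sign. The scalings multiplied mixtures 5 and 6 by factors of 0.985 to 1.03, too close together to turn a 2-fold difference. Of 244 summary values under the alternatives, 191 stayed close to the main value and 53 did not. Part of the 191 could not move. The level of the 10 genes nearly absent from the other lines and the fitted shares use neither the pseudocount nor the entry level. Scaling to a median ratio of 1 also leaves the fitted shares unchanged. The 191 are therefore no measure of how stable the results are. The numbers of genes higher and lower in mixture 6 were 17 and 11, and were 166 and 103 at a threshold of 1.5-fold, 5 and 2 at a log2 threshold of 2, 7 and 6 with a pseudocount of 5, 55 and 25 with an entry level of 1 or with none, and 4 and 6 with an entry level of 20. Of the higher genes, HL60 was the highest line for 85, 5, 7, 45 and 4 in that order, and of the lower genes SUDHL4 was for 21 (1.5-fold), 2 (threshold 2) and 15 (entry level of 1 or none), and for 4 when it had to be 2-fold above the next line. With that rule the medians by highest line were 0.21 for HL60 and -0.23 for THP1. The median of HL60-enriched genes was 0.55 with a pseudocount of 5, 0.90 with an entry level of 1, 0.21 with a margin of 1 and 1.83 with a margin of 3. With an entry level of 1, or none, the granule list median was 0.11 or 0.12 and the class II median -0.080. In the entry-level comparison, the share called at an HL60 excess of 3 or more was 76.9% in the main setting. It was 100% at 1.5-fold and under column-total or housekeeping scaling, and 38.5% at a threshold of 2. At an excess of 1 to 2 it was 0.847% in the main setting and 6.78% at 1.5-fold. There it was 0% at a threshold of 2, with a pseudocount of 5, with an entry level of 20 and under housekeeping scaling. In the main setting, 3 of 5 genes at an excess of 3 to 4 and 7 of 8 at 4 or more were below 5 in mixture 5. These entered through mixture 6 alone, so the share at an excess of 3 or more was partly fixed by the entry rule. The level of the 10 genes nearly absent from the other lines in mixture 6 was 8.47% under column-total and 8.04% under housekeeping scaling, and with HL60 genes of margin 3 it was 6.06%, and 0.370% in mixture 5. The fitted HL60 share of mixture 6 was 8.48% and 8.56% under those scalings. Housekeeping scaling gave THP1 34.1% of mixture 5 and 27.15% of mixture 6. With all genes at 5 or more in a pure line the fit gave HL60 4.50% and 9.90%, and THP1 37.5% and 29.5%. Fewer or more genes entered under other entry levels and margins; elsewhere the cause was not tested. No paired analysis was possible because each group holds 1 library. Leaving out a replicate was not possible for the same reason. A level of 1 read was 0.0587 in mixture 5 and 0.0460 in mixture 6, which limits genes with few reads.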

Other observations

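Of 8 compared interferon-response genes, 7 had a log2 ratio below 0, with a median of -0.25, and none passed the threshold. OAS3, an antiviral oligoadenylate synthetase, had 5.66 in mixture 5 and 2.81 in mixture 6 (-0.81), and MX2, an antiviral GTPase, had 8.47 and 5.05 (-0.65). Both were highest in pure THP1, at 16.9 and 20.6. Class I presentation genes lay on both sides of 0, with 6 of 11 above it. HLA-C had 48.5 in mixture 5 and 75.6 in mixture 6 (0.63), with 377.7 in pure HL60 and 108.3 in pure THP1. CYBA, the small membrane subunit of the phagocyte oxidase, had 337.8 and 228.0 (-0.56), while NCF4, a cytosolic subunit, had 68.0 and 73.2 (0.11). CAMP, the cathelicidin of neutrophil secondary granules, had 74 reads in mixture 5 and 142 in mixture 6 (levels 2.92 and 4.37), below the level at which genes entered the comparison. Among the pure lines CAMP was highest in SUDHL4, at 20.5, with 1.51 in THP1 and 0.0503 in HL60.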
